A study of Homo sapiens with 8 samples.

Results

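The peaks described here are the ATAC-seq peaks of the human major histocompatibility complex (MHC), taken from the union table of MACS2 peaks called at q 0.01 as those on chromosome 6 that start between 29500000 and 33500000 (GRCh38). This gave 232 of the 62528 peaks of the study, of which 230 passed a filter on low counts. The peaks that failed it are both intergenic peaks nearest to HLA-DQB1. ATAC-seq marks accessible DNA by the insertion of sequencing adapters by a transposase, and the count of a peak is the number of reads assigned to it. The libraries came from JJN3 and KMS11, established human multiple myeloma lines, each exposed for 48 h to DMSO (the solvent), to 200 nM pomalidomide (POM), to 40 nM GNE-781 or to both agents. There was 1 library for each of the 2 lines and 4 treatments, 8 in all, and no label says that they came from separate cultures. The p-values therefore measure the spread between these libraries, which may be technical. In a treatment test a peak's own spread is the disagreement of the lines. That spread had 3 residual degrees of freedom, against 62.8 prior ones drawn from all peaks. A peak whose lines disagree can therefore still be called. Each line is a single established culture, and the BATF and eGFP overexpression that the series text mentions is not analysed here.

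The MHC holds 3 neighbouring gene groups. Class I molecules (HLA-B, HLA-C and relatives) show peptides made inside the cell to cytotoxic T cells, and these peptides are cut by the immunoproteasome (PSMB8, PSMB9) and pumped into the endoplasmic reticulum by TAP1 and TAP2. Class II molecules (HLA-DR, HLA-DQ, HLA-DP, loaded with the help of HLA-DM) show peptides from endosomes to helper T cells, are switched on by CIITA together with the RFX, CREB and NF-Y factors that sit on their promoters, and are usually turned down when a B cell becomes a plasma cell, the cell of origin of myeloma. The class III stretch between them holds complement genes (C2, CFB, C4A, C4B), heat shock genes and the TNF and lymphotoxin cytokines. Pomalidomide binds cereblon, which then marks IKZF1 and IKZF3, lymphoid transcription factors, for the proteasome. GNE-781 is a bromodomain inhibitor of EP300 and CREBBP, which acetylate histones at enhancers.

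The promoter windows below are the 250 bases before the annotated start in RefSeq (GRCh38.p14), printed 5′ to 3′ on the strand of the gene. They were chosen because their peaks carry the comparisons that follow. HLA-B, HLA-C, HLA-F and TAP1 stand for class I presentation, whose peaks differed little between the lines. HLA-DMA, HLA-DRB1 and HLA-DQB1 stand for class II, whose peaks were lower in KMS11, and CFB and NRM are promoters called higher with pomalidomide. Capitals mark matches, on either strand, to CCAAT (the core of the Y box bound by NF-Y), TGACG (the core of the X2 box bound by CREB), GGGANTCCC (a kappaB-like element), AANNGAAA (an element of the IRF factors) and TGANTCA (the AP-1 element, with no match here). The pair of adjoining IRF matches in TAP1 overlap each other, and no other matches overlap.
HLA-B: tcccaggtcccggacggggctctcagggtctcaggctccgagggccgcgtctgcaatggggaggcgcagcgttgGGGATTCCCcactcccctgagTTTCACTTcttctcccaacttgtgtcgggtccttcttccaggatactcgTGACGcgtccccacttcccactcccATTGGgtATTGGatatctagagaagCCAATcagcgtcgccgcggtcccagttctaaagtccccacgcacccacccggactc
HLA-C: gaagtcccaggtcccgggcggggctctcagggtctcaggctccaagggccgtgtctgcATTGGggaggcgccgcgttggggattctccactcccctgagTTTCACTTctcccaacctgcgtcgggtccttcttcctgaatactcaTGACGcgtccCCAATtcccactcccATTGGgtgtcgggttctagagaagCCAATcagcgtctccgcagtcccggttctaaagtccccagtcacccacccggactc
HLA-F: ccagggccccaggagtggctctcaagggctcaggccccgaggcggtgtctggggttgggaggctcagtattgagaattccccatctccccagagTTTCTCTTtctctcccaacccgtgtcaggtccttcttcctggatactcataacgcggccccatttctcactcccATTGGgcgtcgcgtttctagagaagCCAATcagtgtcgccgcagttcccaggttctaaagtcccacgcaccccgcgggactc
TAP1: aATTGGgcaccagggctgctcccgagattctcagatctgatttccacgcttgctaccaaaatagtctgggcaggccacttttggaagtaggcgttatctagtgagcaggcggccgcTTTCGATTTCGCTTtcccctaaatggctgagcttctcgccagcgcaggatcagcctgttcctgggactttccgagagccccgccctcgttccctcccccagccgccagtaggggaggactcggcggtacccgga
HLA-DMA: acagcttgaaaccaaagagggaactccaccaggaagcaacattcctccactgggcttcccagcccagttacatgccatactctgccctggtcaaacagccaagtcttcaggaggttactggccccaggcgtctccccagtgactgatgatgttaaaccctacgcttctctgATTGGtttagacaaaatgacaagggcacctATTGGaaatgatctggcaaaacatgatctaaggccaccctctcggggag
HLA-DRB1: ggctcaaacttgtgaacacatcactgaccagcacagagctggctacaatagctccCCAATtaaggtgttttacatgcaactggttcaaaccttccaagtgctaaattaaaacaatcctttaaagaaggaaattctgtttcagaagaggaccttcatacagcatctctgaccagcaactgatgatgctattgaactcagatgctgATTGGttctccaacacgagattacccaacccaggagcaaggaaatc
HLA-DQB1: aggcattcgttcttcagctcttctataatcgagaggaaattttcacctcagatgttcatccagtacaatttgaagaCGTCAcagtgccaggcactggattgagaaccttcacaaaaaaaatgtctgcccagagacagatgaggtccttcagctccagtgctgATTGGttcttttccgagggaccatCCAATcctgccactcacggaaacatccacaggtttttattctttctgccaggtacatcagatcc
CFB: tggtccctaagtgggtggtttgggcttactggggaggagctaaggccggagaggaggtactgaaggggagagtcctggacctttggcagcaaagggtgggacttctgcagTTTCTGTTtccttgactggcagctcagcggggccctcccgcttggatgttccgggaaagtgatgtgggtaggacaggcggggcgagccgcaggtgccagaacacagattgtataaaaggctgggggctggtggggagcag
NRM: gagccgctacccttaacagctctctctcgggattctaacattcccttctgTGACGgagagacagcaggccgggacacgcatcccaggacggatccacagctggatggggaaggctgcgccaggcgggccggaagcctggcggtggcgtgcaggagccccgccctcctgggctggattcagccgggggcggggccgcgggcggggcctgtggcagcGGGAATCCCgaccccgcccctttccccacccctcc

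These windows lie at chr6:31357180-31357429, chr6:31272093-31272342, chr6:32853705-32853954, chr6:32953098-32953347, chr6:32589849-32590098, chr6:32666658-32666907 and chr6:30690985-30691234 on the minus strand, and at chr6:29723184-29723433 and chr6:31945845-31946094 on the plus strand. CCAAT was matched in every printed window of an HLA gene and in that of TAP1, and in neither CFB nor NRM. NRM has a further window (chr6:30690730-30690979), not printed, which lies inside its peak and holds no match to any marked element. The printed NRM window runs past the end of that peak. HLA-B holds a match to each of the elements but AP-1, and HLA-C to each of them but AP-1 and the kappaB-like one. Of the 130 promoter windows that overlap a peak of the region, 58 (44.6%) hold CCAAT, against 32% of all 35116 windows in the table. GGGANTCCC is in 6 of the 130 (4.62%) and in 0.772% of all windows. TGACG is in 29.2% against 21.2%, AANNGAAA in 23.8% against 20.3%, TGANTCA in 4.62% against 6.57%, and TGGGAA, a core of the Ikaros site, in 22.3% against 20.8%. The 130 windows were taken because they overlap a peak, and the 35116 were not. These shares therefore cannot separate the region from open promoters in general. Some windows also overlap each other, such as those of FLOT1 and IER3-AS1, which both count toward GGGANTCCC. A match describes the reference letters and does not show binding, and neighbouring HLA genes share sequence by descent. The table held a window for 22 of 25 genes looked up by name, and HLA-E and HLA-DRA are named here without one.

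The 232 peaks carried 150 gene symbols in the authors' annotation. Promoters were common among them: 115 peaks (49.6%) lay within 1000 bp of an annotated transcript start, against 25.5% of all peaks, 59 lay elsewhere in a gene and 58 between genes. The median width was 523 bp, against 431 bp over all peaks. By symbol, 18 peaks belonged to class I HLA and MIC genes, 71 to other genes of the class I stretch, 57 to class III, 26 to class II HLA genes, 7 to antigen processing genes, 22 to the extended class II stretch, and 31 to symbols in none of these lists. Besides HLA-B, HLA-C, HLA-E, HLA-G, MICA and MICB, the class I HLA and MIC group holds HLA-F-AS1, HLA-V, HLA-Z, MICC, MICD, MICE and MICF. The class II HLA group also holds BTNL2 and HLA-DRB9. Group counts are therefore not those of the classical genes alone. No peak carries the symbol HLA-DPB1, HLA-DMB, PSMB9 or TNF. By RefSeq, the HLA-F promoter lies in the peak of the pseudogene HCG4P11 (chr6:29723062-29723736), and the PSMB9 promoter in the TAP1 promoter peak, since TAP1 and PSMB9 share it. Reads of near-identical copies (the class I genes among themselves, HLA-DRB1 and HLA-DRB5, C4A and C4B, HSPA1A and HSPA1B, TNXB and its pseudogene) could be split between them, so values of single copies are uncertain.

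The libraries held 1366628 to 5435673 counts in peaks, of which the region took 0.531% to 0.613% in JJN3 and 0.348% to 0.407% in KMS11. The JJN3 DMSO library was the shallowest, with a median of 23 counts per peak of the region. Promoter peaks were present for 8 of 10 plasma cell markers, with a summed level of 302 to 345 CPM (counts scaled to the library's size) in JJN3 and 232 to 266 in KMS11. They were present for 3 of 8 B cell markers (25 to 37.2 CPM in JJN3, 51.1 to 70.2 in KMS11), 2 of 7 T and NK cell markers (30.8 to 52.6 and 52.5 to 61.8), 1 of 6 myeloid markers (3.85 to 14.3 and 8.79 to 9.58) and 2 of 5 stromal markers (13.5 to 19.9 and 30.3 to 55.1). MS4A1, CD3D, CD3E, CD14 and LYZ had no promoter peak in the table. Of the antigen-presenting cell markers, CD74 and HLA-DRA had a promoter peak, while CIITA and HLA-DPA1 had none by the authors' annotation. A peak assigned to HLA-DPA1 does overlap its RefSeq promoter window. More cells with an open site and more open DNA per cell cannot be told apart in bulk ATAC-seq.

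The region was more accessible in JJN3 than in KMS11, and class II and class III genes carried most of the difference. Over all 4 treatments, 65 of the 230 peaks tested were called higher in JJN3, where 16.1% of all peaks were, and 6 were called lower, where 15.8% of all peaks were. A call is an adjusted p under 0.05 by the edgeR quasi-likelihood test with Benjamini-Hochberg adjustment over all 62234 peaks, and here also a change of at least 2-fold. Class II HLA genes had 16 of 24 tested peaks called higher and 0 lower, and class III genes had 25 of 57 higher and 1 lower. Class I HLA and MIC genes, a group that includes the further symbols named above, had 1 of 18 called higher and 0 lower.

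The median log2 difference, JJN3 minus KMS11, was 0.49 in the region and -0.08 over all peaks. It was 1.27 for class II HLA genes, 0.87 for class III, 0.41 for the other class I stretch, 0.39 for antigen processing, 0.34 for the extended class II stretch and 0.33 for class I HLA and MIC genes. All 4 JJN3 libraries were above all 4 KMS11 libraries in 100 of the 230 peaks, and in 21% of all peaks. The reverse held in 6 of the 230, and in 21.3% of all peaks. In successive steps of 1 Mb the median was 0.32 (29.5 to 30.5 Mb), 0.47 (30.5 to 31.5 Mb), 0.94 (31.5 to 32.5 Mb) and 0.49 (32.5 to 33.5 Mb), with 6, 12, 31 and 16 peaks called higher. The step that holds most of class III and the start of class II stood highest.

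The chromosome on both sides of the region was also shifted toward JJN3. The 173 peaks of the 4 Mb before it had a median log2 difference of 0.35 and the 156 peaks of the 4 Mb after it 0.40, while chromosome 6 outside the region had 0.05. In these flanks 18.5% and 16.7% of peaks were called higher in JJN3, against 28.3% in the region. When the 2-fold change was counted from the common flank median of 0.38, a rule chosen after the values were seen, 44 peaks were called higher in JJN3 and 8 lower, with 11 of 24 in class II HLA genes and 16 of 57 in class III. The DNA copy number of this arm in either line was not tested.

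**Figure D1:**
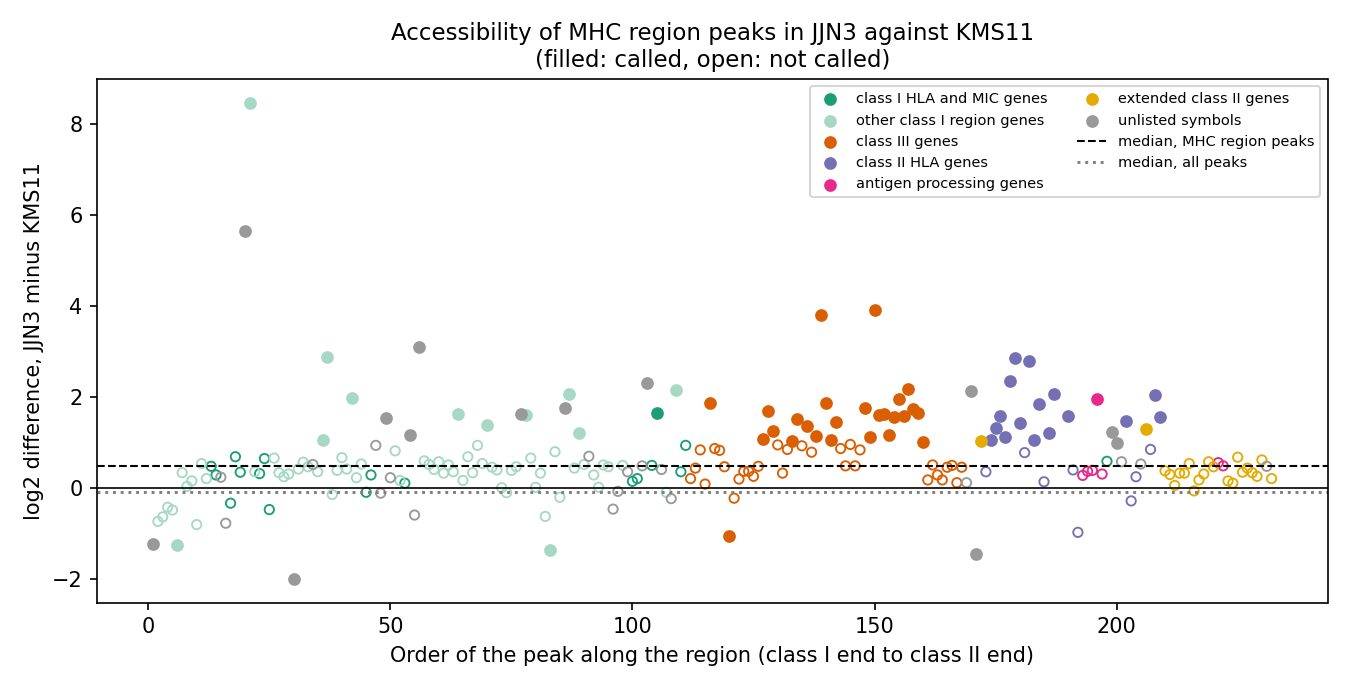
Each point is 1 of the 230 tested peaks in its order along the region (x axis), with its log2 difference JJN3 minus KMS11 (y axis) and the gene group as colour, filled where called. Most points lie above 0, the medians are 0.49 for the region (dashed) and -0.08 for all peaks (dotted), and the filled points crowd in class III and class II.

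Among class I genes the classical promoters were open at nearly the same level in both lines. Values are CPM in the order DMSO, pomalidomide, GNE-781 and combination. The HLA-B promoter peak (chr6:31356845-31357658) held 30.1, 24.3, 21.8 and 29.1 in JJN3 and 22.5, 21.7, 23.9 and 22.8 in KMS11. The HLA-C promoter peak (chr6:31271138-31272533) held 51.1, 46.0, 43.6 and 42.2 in JJN3 and 41.7, 40.1, 39.5 and 42.9 in KMS11. The lines overlapped at both genes, and the log2 differences of 0.21 ± 0.17 (SE) and 0.15 ± 0.14 had adjusted p of 0.303 and 0.378. The HLA-E promoter peak (chr6:30489200-30490466), whose product is a ligand of NK cell receptors, held 38.3, 43.0, 36.5 and 29.6 in JJN3 and 33.4, 38.6, 31.0 and 32.6 in KMS11. The peak over the HLA-F promoter held 33.1, 30.3, 20.5 and 20.8 in JJN3 and 20.4, 22.1, 19.7 and 26.9 in KMS11. The lines overlapped at both of these genes too, and their log2 differences were 0.11 (adjusted p = 0.559) and 0.21 (0.315).

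MICA and MICB encode stress ligands that NKG2D on NK cells recognises, and each has 2 promoter peaks at different transcript starts. At MICA, the peak over the RefSeq promoter (chr6:31403302-31403791) held 22.5, 32.0, 17.3 and 20.8 in JJN3 and 8.02, 7.07, 6.79 and 7.84 in KMS11. The lines did not overlap, and JJN3 was 1.64 ± 0.22 higher on the log2 scale (adjusted p = 3.46e-09), the call of the class I HLA and MIC group. The other MICA peak (chr6:31399521-31400200) held 18, 26.7, 10.9 and 31.5 in JJN3 and 10.9, 17.6, 13.6 and 19.2 in KMS11, with overlapping lines and a log2 difference of 0.50. At MICB, the peak over the RefSeq promoter (chr6:31497572-31498253) held 30.8, 28.7, 23.7 and 30.5 in JJN3 and 10.6, 15.2, 16.2 and 17.1 in KMS11. Its lines did not overlap, and its log2 difference of 0.94 ± 0.19 (adjusted p = 2e-05) fell short of the 2-fold rule. The other MICB peak (chr6:31493829-31494310) held 9.77, 14.0, 12.2 and 17.9 in JJN3 and 6.73, 14.6, 7.11 and 13.0 in KMS11. In this peak and in the MICA peak at chr6:31399521, the combination library was above the DMSO library in each line. The log2 changes of 0.92 (adjusted p = 0.1) and 0.82 (adjusted p = 0.0761) did not pass the test.

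The antigen processing promoters stood near the class I pattern. The shared TAP1 and PSMB9 promoter peak (chr6:32853121-32854413), which serves a subunit of the peptide pump and one of the immunoproteasome, held 53.4, 63.0, 55.1 and 64.0 CPM in JJN3 and 41.4, 55.7, 39.1 and 53.6 in KMS11. The TAP2 promoter peak (chr6:32838123-32839066), for the other subunit of the pump, held 30.8, 39.0, 43.0 and 39.8 in JJN3 and 25.6, 28.5, 30.1 and 33.8 in KMS11. The lines overlapped at both, with log2 differences of 0.31 (adjusted p = 0.0473) and 0.37 (0.0355). The PSMB8 promoter peak (chr6:32844311-32845089) held 39.8, 51.0, 37.2 and 38.8 in JJN3 and 31.8, 35.4, 28.5 and 31.7 in KMS11. The TAPBP promoter peak (chr6:33312635-33313434), for tapasin, which bridges TAP and class I, held 39.1, 37.3, 28.9 and 35.4 in JJN3 and 29.5, 23.2, 26.8 and 22.4 in KMS11. This is a start of the authors' annotation, and the RefSeq promoter of TAPBP lies in the next peak, assigned to ZBTB22 (chr6:33313856). JJN3 was above KMS11 throughout at PSMB8 but not at TAPBP, and neither reached 2-fold (log2 0.39 and 0.49). The group's call was a peak inside TAP1 (chr6:32845392), at a mean of 13.8 CPM in JJN3 and 3.63 in KMS11 (log2 1.96).

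Class II promoters were present in both lines and clearly lower in KMS11. The HLA-DMA promoter peak (chr6:32952814-32953460), for a chain of the peptide exchange factor, held 32.3, 50.3, 40.4 and 36.4 CPM in JJN3 and 11.4, 13.7, 11 and 20.8 in KMS11. HLA-DRB1 (chr6:32589625-32590024), a beta chain, held 11.3, 20, 12.2 and 17.9 in JJN3 and 5.18, 6.65, 4.53 and 6.23 in KMS11. The HLA-DRA promoter peak (chr6:32439680-32440021), for the alpha chain it pairs with, held 9.77, 14.3, 8.34 and 16.5 in JJN3 and 4.92, 3.64, 5.5 and 6.05 in KMS11. The lines did not overlap at any of these 3 promoters. Their log2 differences were 1.48 ± 0.18 (adjusted p = 1.46e-10), 1.44 ± 0.25 (1.16e-06) and 1.33 ± 0.27 (3.42e-05). HLA-DQB1 has a peak over its RefSeq promoter (chr6:32666463-32666890) with 18.8, 26.7, 16.0 and 22.8 in JJN3 and 5.44, 10.1, 8.73 and 12.1 in KMS11. A second one lies at another annotated start (chr6:32668183-32668747) with 12, 36.3, 21.2 and 27.2 in JJN3 and 3.88, 7.07, 5.17 and 6.77 in KMS11. JJN3 was above KMS11 in every treatment at both, by 1.22 ± 0.22 (adjusted p = 3.03e-06) and 2.06 ± 0.23 (8.29e-12) on the log2 scale. HLA-DPA1 had no promoter peak by the authors' annotation, which places its peaks (chr6:33073487 and chr6:33075780) inside the gene. By RefSeq, the first overlaps the promoter window of HLA-DPA1 and the second that of HLA-DPB1. They were called higher by 2.04 and 1.56. The peak over the RefSeq promoter of HLA-DMB (chr6:32940848-32941261) was called higher by 1.23. HLA-DOA and HLA-DOB, which encode the brake on HLA-DM, and HLA-DQA1 had intergenic peaks only. Of the 24 tested class II peaks, 22 had positive line differences and 2 negative ones. The HLA-DOB peak was lower in JJN3, with 19 counts against 81 in KMS11. Its depth-corrected ratio was 0.508, with an exact 95% interval of 0.291 to 0.846 that covers counting error only. How reads from each line's own HLA sequence map to the reference was not tested.

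Per kb of peak, a scale that allows genes to be compared, class I and processing promoters had means of 29.1 to 53.5 CPM per kb in JJN3 and 26.8 to 40.9 in KMS11, with MICA and MICB left aside. The class II promoters HLA-DRA, HLA-DRB1, HLA-DQB1 and HLA-DMA had 35.8, 38.4, 49.2 and 61.6 in JJN3 and 14.7, 14.1, 21.2 and 22.0 in KMS11. In JJN3 these class II levels lay within or above the class I and processing range, and in KMS11 all lay below it.

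**Figure D2:**
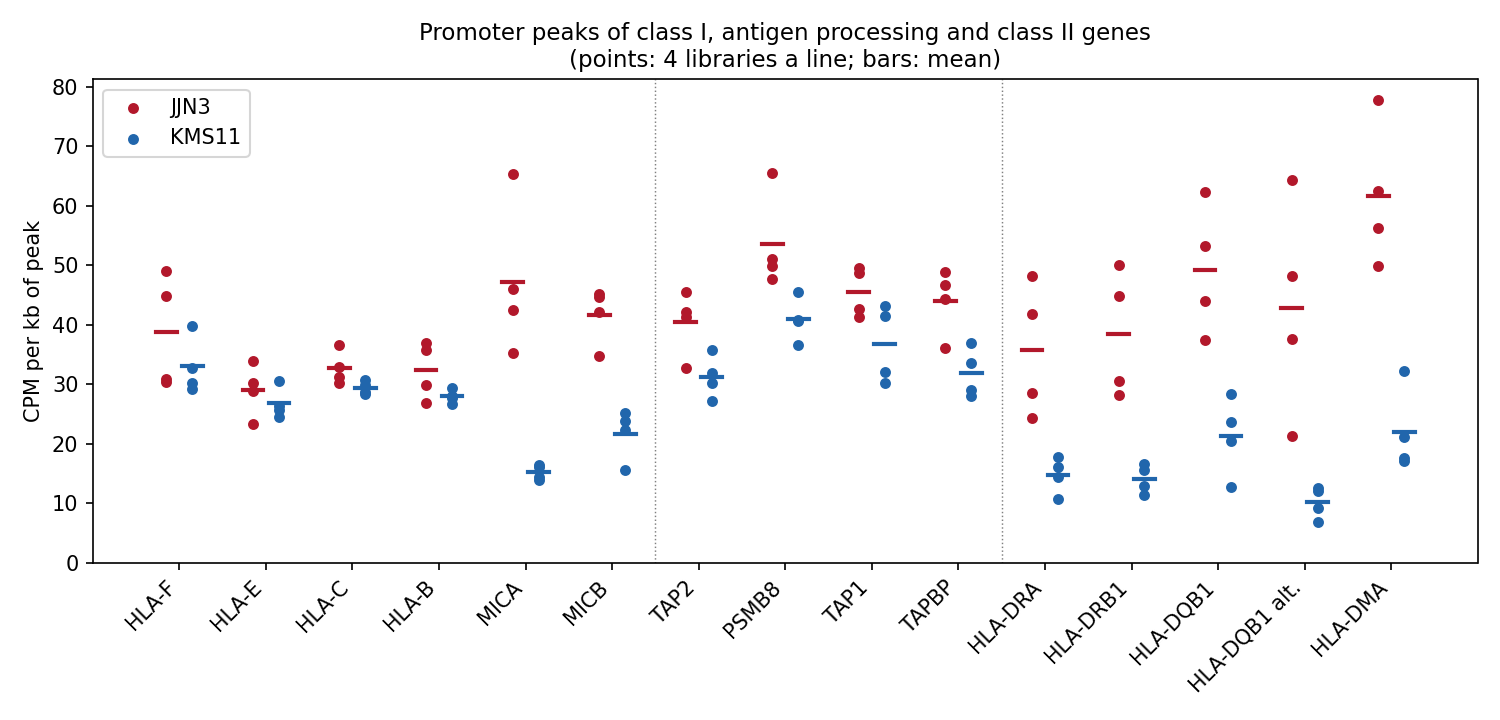
Accessibility per kb of peak (y axis, CPM per kb) of promoter peaks of class I and MIC genes, antigen processing genes and class II genes (x axis, the groups parted by dotted lines), with 1 point per library, red for JJN3 and blue for KMS11, and bars at the mean of 4 libraries. The HLA-B and HLA-C points of the lines overlap, and the 5 class II peaks on the right are parted, as are MICA, MICB and PSMB8. The label "alt." is the second HLA-DQB1 start.

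The largest line differences were a pair of neighbouring peaks in the class I stretch that were almost empty in KMS11. The peak at HCG4B (chr6:29926860-29927448), a noncoding class I relative, held 275 counts over the JJN3 libraries and 1 count over the KMS11 libraries. The depth-corrected ratio was 596, with an exact 95% interval of 106 to 23600 that covers counting error only. The peak at HCG4P7 (chr6:29887718-29888489) held 232 counts in JJN3 and 9 in KMS11, a ratio of 55.9 (28.9 to 124). In CPM, HCG4B had 39.1, 35.3, 37.8 and 28.1 in JJN3 and 0.259, 0, 0 and 0 in KMS11. The peaks on both sides had ordinary levels in KMS11: the peak before the pair (MICF, chr6:29847851) held 9.65 to 10.7 CPM and a peak after it (MICD, chr6:29964796) 13.7 to 18.6. The authors' handling of reads that map to several class I copies is not given in the sources used here, and its part in the empty pair was not tested.

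**Figure D3:**
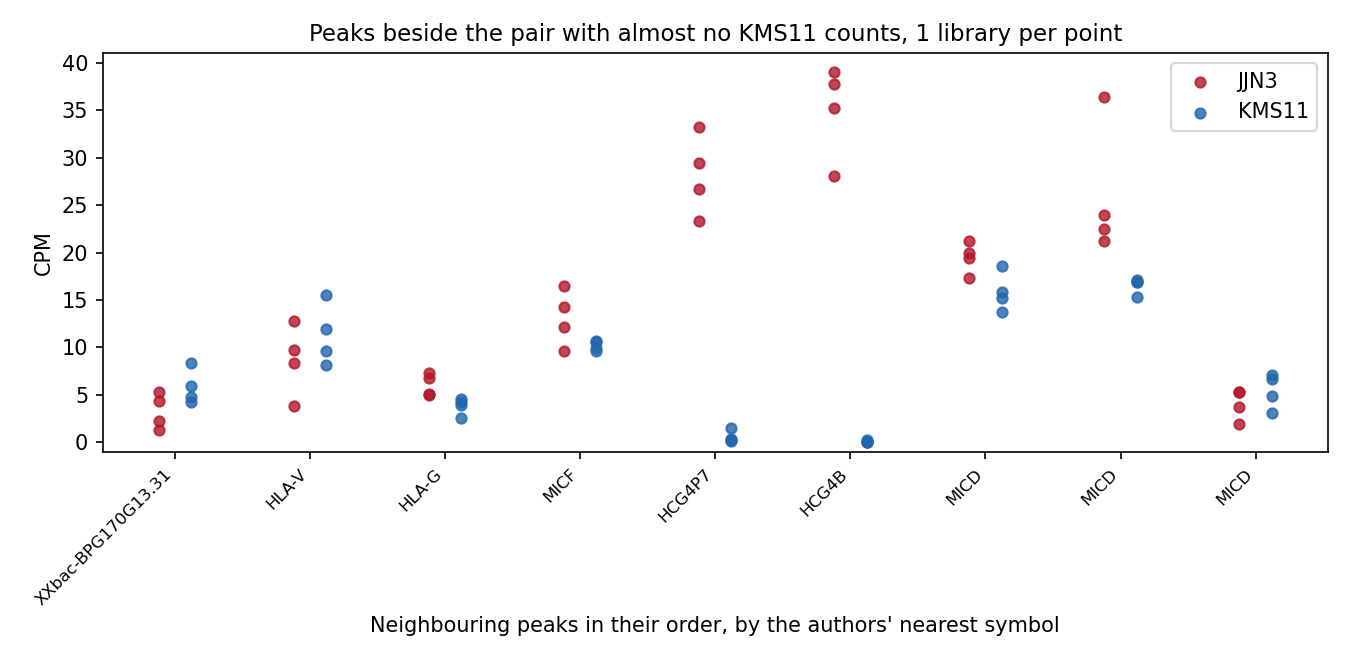
CPM (y axis) of 9 neighbouring peaks of the class I stretch in their order, named by the nearest symbol (x axis), with 1 point per library, red for JJN3 and blue for KMS11. KMS11 is at or near 0 at HCG4P7 and HCG4B only, and between 13.7 and 18.6 at the first MICD peak.

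In class III, the peaks with the lowest adjusted p in the line difference lie at C2, DXO, C4B, HSPA1B, C4A and TNXB. The promoter peaks of C4B (chr6:32014424-32014992) and C4A (chr6:31981536-31982260), near-identical genes for complement factor C4, held means of 45.1 ± 7.19 and 47.4 ± 8.07 CPM (SD, n = 4 treatments) in JJN3 and 10 ± 1.85 and 12.6 ± 2.75 in KMS11. A peak inside C2 (chr6:31906912-31907673), the neighbouring complement gene, held 39.8, 32.7, 30.8 and 27.6 in JJN3 and 3.11, 2.57, 0.970 and 1.78 in KMS11. It was 3.91 ± 0.25 higher on the log2 scale (adjusted p = 4.98e-21), with no overlap of the lines. The HSPA1B promoter peak (chr6:31826955-31828070), of an inducible HSP70 gene, held 171 ± 16.6 against 62.7 ± 12.8, and that of DXO (chr6:31971806-31972681), an RNA decapping enzyme, 113 ± 6.30 against 37.8 ± 2.96. A peak in the tenascin gene TNXB (chr6:32086521-32087473) was higher by 1.64, one in HCP5 (chr6:31474032-31474652) of the class I stretch by 2.16, and one in HLA-DRB1 (chr6:32583782-32584384) by 2.85. The call list also held the promoter peaks of C2 (1.76 and 1.12), HSPA1A (1.88) and HLA-DRB5 (2.35).

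The 6 peaks called higher in KMS11 include a cytokine and a receptor promoter. LTB, which encodes lymphotoxin beta, had a promoter peak (chr6:31581907-31582971) at 12.8, 8.66, 10.9 and 11.2 CPM in JJN3 and 21.0, 21.0, 22.3 and 23.5 in KMS11. JJN3 was lower without overlap (log2 -1.04 ± 0.21, adjusted p = 3.05e-05), although leaving out either pomalidomide library took the change just under 2-fold (lowest size -0.95). The LTA promoter peak beside it (chr6:31572087-31572551), for lymphotoxin alpha, held 19.5, 21.0, 16.0 and 10.2 in JJN3 and 10.4, 11.1, 10 and 5.88 in KMS11, with a log2 difference of 0.83 that is under 2-fold. The promoter peak of GABBR1 (chr6:29632488-29633835), a subunit of the GABA-B receptor, held 24.1, 27.3, 25.6 and 23.3 in JJN3 and 45.3, 67.1, 53.4 and 68.9 in KMS11 (log2 -1.24). The peak at the VARS2 start (chr6:30907860-30908418, over the GTF2H4 promoter in RefSeq) was lower in JJN3 by -1.35 on the log2 scale, an intergenic peak near AL669914.1 by -1.99, a peak in XXbac-BPG154L12.5 (chr6:32268475) by -1.44 and an intergenic peak near XXbac-BPG13B8.10 by -1.22. The last was also lost under the 2-fold rule when either DMSO library was left out.

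Counts summed over all peaks of a gene were also higher in JJN3 mainly for class II and class III genes. These sums reuse the counts of the peaks above. Of 150 genes, 36 were called higher in JJN3, where 11.7% of all 24872 genes were, and 2 lower, where 11.5% were. They held 7 of 12 class II HLA genes, among them HLA-DRB1 (log2 1.79 ± 0.16), HLA-DPA1 (1.79 ± 0.20) and HLA-DQB1 (1.48 ± 0.13), 16 of 38 class III genes, 0 of 13 class I HLA and MIC genes and 0 of 4 antigen processing genes.

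Regulators and partners of presentation elsewhere in the genome were more often lower than higher in JJN3. Of 39 listed genes, 33 had a peak, with 90 peaks tested. JJN3 was called higher in 6 (6.67%, where 16.1% of all peaks were) and lower in 18 (20%, where 15.8% were), with a median log2 difference of -0.20. The lower ones include promoters of the NKG2D ligands ULBP1 (-2.20), ULBP2 (-2.01) and ULBP3 (-1.19) and 5 peaks in MARCH1, a ligase that removes class II from the surface. The higher ones include a promoter of the endosomal protease CTSS (2.05) and a peak inside NLRC5 (1.61), the class I transactivator, of which another inner peak was lower (-1.39). CIITA, the class II transactivator, had 1 peak, inside the gene, at 7.34 ± 2.97 CPM in JJN3 and 4.68 ± 0.699 in KMS11 (SD, n = 4 treatments, log2 0.58, adjusted p = 0.12).

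Pomalidomide alone raised 5 peaks of the region and lowered 0. This is 2.17% of the 230 tested, where 1.03% of all peaks were called higher and 0.228% lower. The 5 lie in different gene groups: CFB in class III, HLA-DQB1 in class II, WDR46 in the extended class II stretch, and NRM and TRIM40 in the class I stretch. Each had a positive single-library log2 ratio in both lines.

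CFB, complement factor B of the alternative pathway, gained accessibility at its promoter (chr6:31945499-31946114, over the window printed above). It held 13.5, 40.3, 13.5 and 33.0 CPM in JJN3 and 4.92, 10.9, 6.14 and 10.5 in KMS11, in the order given above. In each line both libraries with pomalidomide were above both libraries without it. The log2 change with pomalidomide was 1.38 ± 0.31 (2.61-fold, edgeR adjusted p = 0.00925).

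At the NRM promoter (chr6:30690572-30691169), for nurim of the inner nuclear membrane, JJN3 held 27.1, 49.7, 27.6 and 33.0 CPM and KMS11 16.3, 31.5, 15.5 and 30.8. Again the libraries with pomalidomide were the higher ones in each line, and the log2 change was 0.93 ± 0.23 (adjusted p = 0.0222). The second HLA-DQB1 start, whose values are given above, rose by 1.28 ± 0.34 (2.42-fold, adjusted p = 0.0351). The HLA-DQB1 peak over the RefSeq promoter had a log2 change of 0.70 with an adjusted p of 0.365. A peak inside WDR46 (chr6:33279958-33280422), a nucleolar protein gene, held 8.27, 18.7, 7.69 and 16.0 in JJN3 and 3.36, 11.8, 6.47 and 12.5 in KMS11 (log2 change 1.53 ± 0.37, adjusted p = 0.0163). A peak inside TRIM40 (chr6:30146856-30147443), of the tripartite motif ligase family, held 9.77, 25.3, 18 and 34.4 in JJN3 and 6.47, 13.9, 6.79 and 14.2 in KMS11 (1.19 ± 0.32, 0.0386). In both peaks the libraries with pomalidomide were above those without it in each line.

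The lowest unadjusted p among peaks with lower values under pomalidomide belonged to XXbac-BPG118E17.10 (chr6:30963792, log2 change -0.57), the intergenic NEU1 peak (-0.62) and a GPANK1 promoter peak (-0.62), with adjusted p from 0.405 to 0.458. These calls were sensitive to single libraries. Leaving out the JJN3 POM, KMS11 DMSO or KMS11 POM library gave 0 calls in the region. Leaving out JJN3 DMSO gave 2 calls, of which 1 was among the 5 (WDR46), and leaving out JJN3 POM+GNE-781 gave 3, all among the 5. The DESeq2 Wald test, which called 0.116% of all peaks, called 0 of the 5, with log2 changes of 0.90 to 1.49.

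GNE-781 alone changed no peak of the region by the edgeR test, where 0.0209% of all peaks were called, 13 in number and lower in each case. At an unadjusted p under 0.05 there were 10 of 230 (4.35%), against 6.58% of all peaks, and the DESeq2 Wald test called 0 in the region and 0 overall. The lowest adjusted p was 0.401, at an intergenic peak near LTA (chr6:31568605) that held 18, 16.7, 12.2 and 12.6 CPM in JJN3 and 14.0, 8.79, 4.53 and 6.41 in KMS11 (log2 change -1.13 ± 0.36). Next among lower values were the TNXB peak (-0.61) and the GPANK1 promoter peak (-0.70). Among higher values the lowest p belonged to the HLA-DMB promoter peak (1.23 ± 0.40, adjusted p = 0.42), the TRIM40 promoter peak (0.88) and an intergenic MUC21 peak (0.76).

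The combination raised 6 peaks, where 2.11% of all peaks were called higher, and lowered 1, where 2.67% were called lower. CFB, WDR46 and TRIM40 were called with both pomalidomide and the combination, comparisons that share the DMSO libraries. CFB changed by 1.19 ± 0.32 (adjusted p = 0.0174), WDR46 by 1.48 ± 0.37 (0.00973) and TRIM40 by 1.42 ± 0.31 (0.00295). The other calls lie inside genes or between them in the authors' annotation.

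A peak inside GABBR1 (chr6:29561102-29561659) held 2.25, 4.33, 5.77 and 8.24 CPM in JJN3 and 3.36, 10.3, 4.85 and 12.3 in KMS11. Among the called peaks it had the largest change, 1.86 ± 0.45 (3.63-fold, edgeR adjusted p = 0.00702). That change starts from few reads: in the JJN3 DMSO library, the shallowest, 1 CPM is 1.33 counts. An intergenic peak near TMPOP1 (chr6:30463590-30463950), which covers the RefSeq promoter window of LOC105375012, held 9.77, 15, 14.7 and 23.8 in JJN3 and 3.11, 5.36, 5.82 and 7.30 in KMS11 (1.25 ± 0.37, 0.0332). At both peaks the DMSO library was the lowest and the combination the highest in each line. A peak in the noncoding gene LINC00243 (chr6:30810686-30811292) held 22.5, 26.3, 15.4 and 25.7 in JJN3 and 6.73, 19.9, 8.73 and 21.9 in KMS11. Its change of 0.99 ± 0.30 (adjusted p = 0.038) rested on KMS11, whose single-library log2 ratio was 1.61 against 0.18 in JJN3.

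The peak called lower lies between genes, 8417 bp from the nearest start, that of the sialidase gene NEU1 (chr6:31853872-31854379). It held 17.3, 14.3, 19.9 and 14.5 CPM in JJN3 and 18.4, 10.5, 14.6 and 6.23 in KMS11. The single-library log2 ratio was -0.24 in JJN3 and -1.47 in KMS11, and the model gave -1.01 ± 0.32 (adjusted p = 0.047). Without KMS11 DMSO 1 call of the 7 was made and without KMS11 POM+GNE-781 3 calls, of which 1 was among the 7. Without JJN3 DMSO 4 calls were made. The DESeq2 Wald test, which called 0.633% of all peaks, called 0 of the 7 and gave no adjusted p for the GABBR1 peak.

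**Figure D4:**
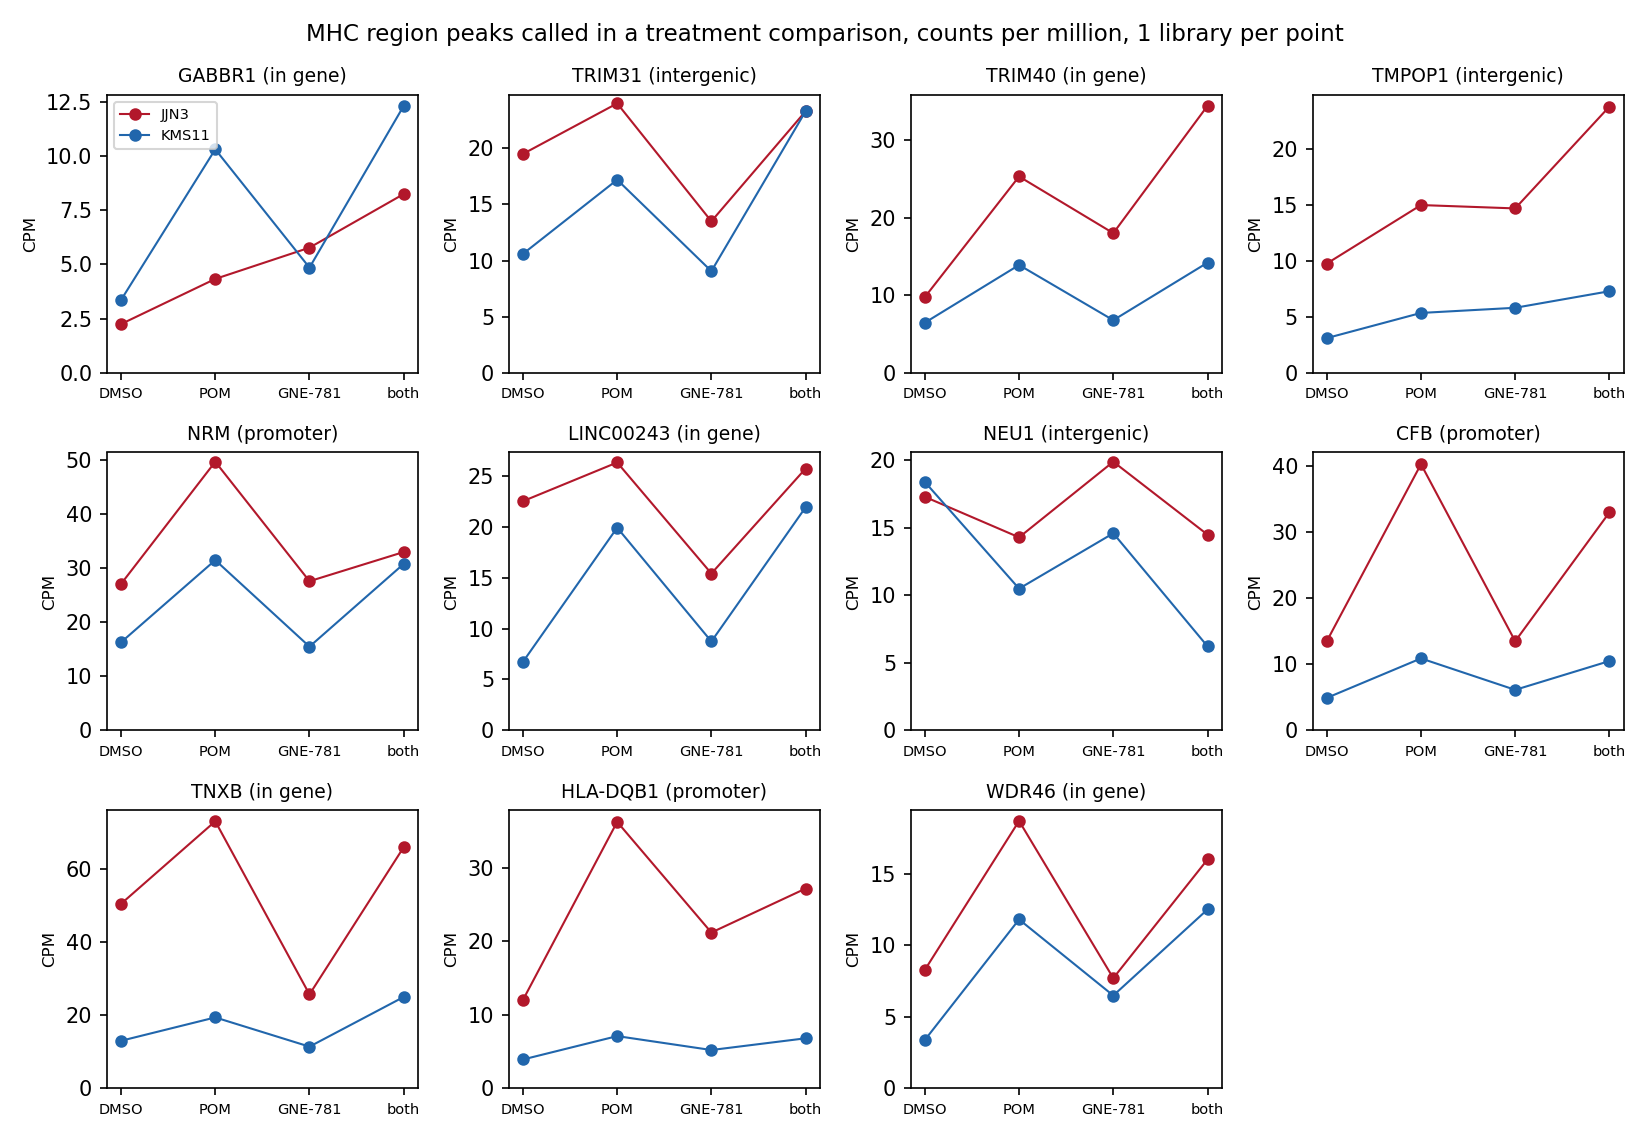
CPM (y axis, from 0) of the 11 peaks of the region called in any treatment comparison, by treatment (x axis, "both" is the combination), with 1 library per point and lines joining the libraries of JJN3 (red) and KMS11 (blue). In the CFB panel the pomalidomide and combination points (40.3 and 33.0 in JJN3) stand above DMSO and GNE-781 (both 13.5).

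Against GNE-781 alone, the combination raised 2 peaks, where 0.999% of all peaks were called higher, and lowered 0, where 0.0948% were. The TNXB peak (chr6:32086521-32087473) held 50.4, 73.0, 25.6 and 65.9 CPM in JJN3 and 12.9, 19.3, 11.3 and 24.9 in KMS11. The GNE-781 library was the lowest of its line in both, and the change was 1.27 ± 0.24 (2.41-fold, edgeR adjusted p = 0.00102; DESeq2 0.0256). An intergenic peak near TRIM31 (chr6:30101867-30102402), another tripartite motif ligase, held 19.5, 24, 13.5 and 23.3 in JJN3 and 10.6, 17.2, 9.06 and 23.3 in KMS11 (1.13 ± 0.30, 0.0333). Without JJN3 GNE-781 or KMS11 POM+GNE-781 neither was called, and without KMS11 GNE-781 only the TNXB peak was. Lower values with the lowest p were at the NEU1 peak (-0.86), XXbac-BPG118E17.10 (-0.66) and an intergenic HLA-DRB1 peak (chr6:32595124, -0.89), with adjusted p of 0.23 to 0.402.

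Against pomalidomide alone, the combination changed no peak of the region by edgeR, where 0.0112% of all peaks were called. At an unadjusted p under 0.05 there were 7 (3.04%, against 7.4% of all peaks), and DESeq2 called 0. The lowest p was at the LTA promoter peak, which was the lowest of its line under the combination in both (10.2 and 5.88 CPM, as given above), with a log2 change of -0.98 ± 0.31 (adjusted p = 0.357). The HLA-DRB1 peak at chr6:32595124 (-0.96) and a PPP1R18 promoter peak (-0.52) followed. Among higher values these were a DHX16 promoter peak (0.62), a TMPOP1 peak (chr6:30450572, 0.56) and a TRIM10 peak (0.93).

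The combination did not depart from the sum of the single-agent log2 changes in any peak, in the region or outside it (0% of all peaks by edgeR). In the region 8 peaks (3.48%, against 2.64% of all peaks) had an unadjusted p under 0.05, and DESeq2 called 0. The largest departures by p were 1.04 at the GPANK1 promoter peak, 1.5 at TRIM10 and 0.70 at TNXB upward, and -1.32 at the HLA-DMB promoter peak and -0.83 at a TRIM31 promoter peak downward. Every adjusted p was 1.

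The lines did not differ by the edgeR test in the response of any peak of the region. For pomalidomide 0 peaks were called, where 0.0675% of all peaks were, and 16 (6.96%, against 7.99% of all peaks) had an unadjusted p under 0.05. For GNE-781 0 were called, where 0.00964% of all peaks were, and 8 (3.48%, against 7.14% of all peaks) had an unadjusted p under 0.05. The lowest adjusted p for pomalidomide was 0.219 at the DDR1 promoter peak (chr6:30884313-30884740), of a collagen receptor, with 12.8, 4.33, 10.3 and 5.33 CPM in JJN3 and 11.4, 12.4, 8.41 and 13.0 in KMS11. LINC00243 (-0.98) and an HLA-DRB9 peak (-0.76) followed in that direction, and RN7SL353P (1.94), NFKBIL1 (1.98) and the HCG18 promoter (0.75) in the other. For GNE-781 these were ATP6V1G2 (1.26), TNXB at chr6:32081182 (1.2) and the TRIM40 promoter (0.91), and the HLA-F promoter peak (-0.74), XXbac-BPG170G13.32 (-0.78) and HCG25 (-0.90), with a lowest adjusted p of 0.535. With 1 library for each line and treatment, only large differences could pass.

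Over both lines the region's treatment changes were small, and most peaks had positive values, with an exception in 1 gene group under GNE-781. Within lines, most peaks were above 0 under GNE-781 in KMS11 (148 of 230) but not in JJN3 (113 of 230). The median log2 change over the 230 peaks was 0.16 with pomalidomide, 0.07 with GNE-781 and 0.20 with the combination, against 0.02, 0 and 0 over all peaks. Positive values were found in 161, 140 and 161 of the 230 peaks (70%, 60.9% and 70%), against 51.7%, 49.8% and 50% of all peaks. The flanks of the region also leaned upward. Their medians with the combination were 0.16 before and 0.10 after, with pomalidomide 0.10 and 0.08, and with GNE-781 0.04 and 0.11. Positive values made up 74% before and 58.3% after with the combination, 58.4% and 57.1% with pomalidomide, and 57.2% and 66% with GNE-781. The share before the region with the combination was above the region's own. So were the share and the median after it with GNE-781. Under GNE-781, class I HLA and MIC genes had a median of -0.06, with 6 of 18 peaks above 0, and the other groups had medians of 0.04 to 0.16. Within lines this class I median was -0.22 in JJN3 and 0.12 in KMS11, a difference that was not tested for the group. Class II HLA genes had the highest median with the combination, 0.42, with 21 of 24 peaks above 0 and 0 called. Class III genes had 0.14 (42 of 57 above 0), antigen processing genes 0.29 (5 of 7), the other class I stretch 0.17 (43 of 71), the extended class II stretch 0.19 (16 of 22) and class I HLA and MIC genes 0.11 (11 of 18). Within each line, as single-library ratios without a replicate check, the region's medians were 0.16, -0.02 and 0.18 in JJN3 and 0.15, 0.15 and 0.19 in KMS11. These comparisons share the DMSO libraries.

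**Figure D5:**
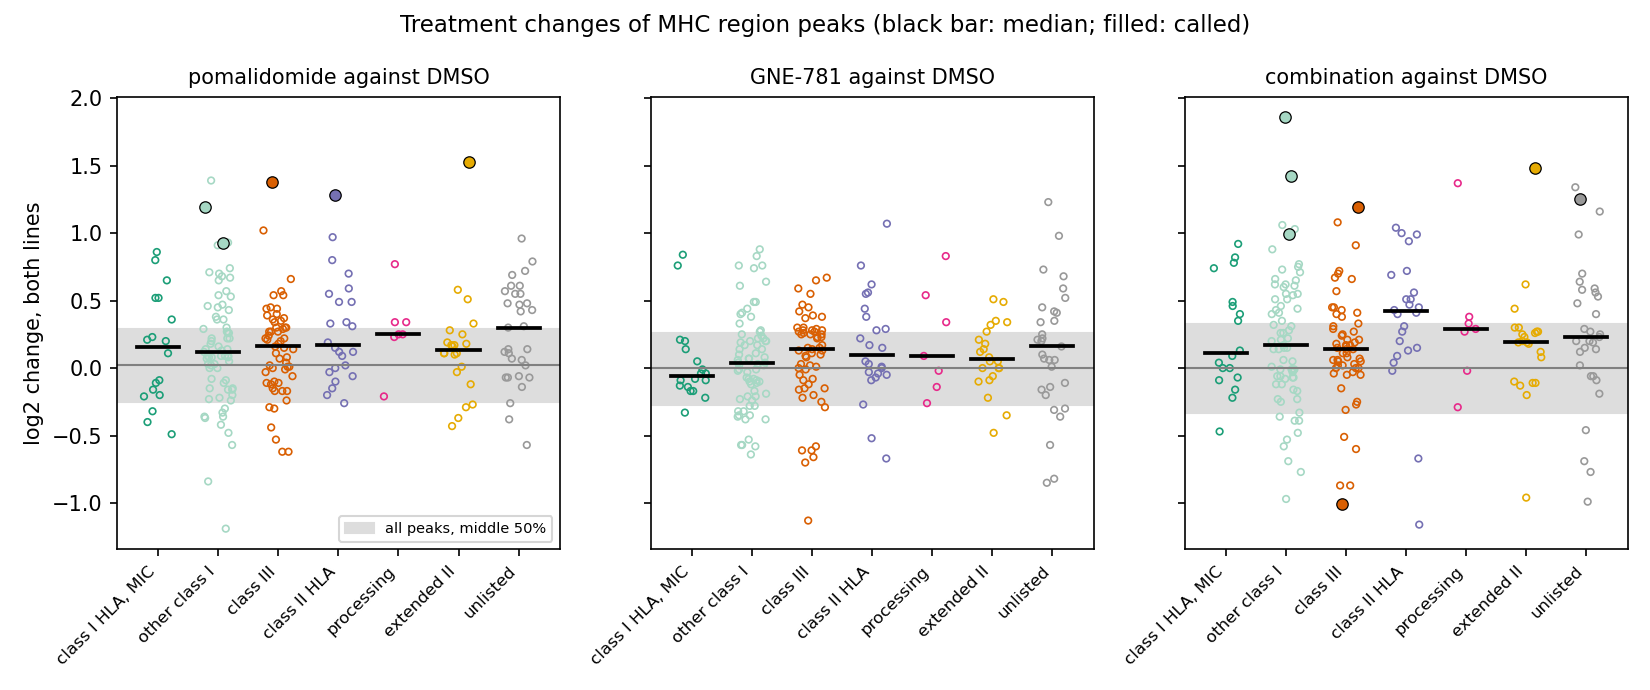
Log2 change over both lines (y axis) of each tested peak by gene group (x axis) for pomalidomide, GNE-781 and the combination against DMSO, with black bars at group medians, filled points for called peaks and a grey band for the middle 50% of all peaks. The class II HLA median with the combination is 0.42, with no called peak in that group, and most other points lie within or near the band.

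On summed counts, pomalidomide raised 2 of 150 genes, CFB (1.37 ± 0.30) and NRM (0.92 ± 0.22), where 0.595% of all genes were called. CFB and NRM have 1 peak each, so their sums hold the same counts as their peak calls and add no separate evidence. GNE-781 changed 0, where 0% of all genes were called. The combination changed 6, where 3.49% of all genes were called: TRIM40 (1.22), CFB (1.18), LINC00243 (0.81), TMPOP1 (0.73) and HLA-DQB1 (0.64 ± 0.19, adjusted p = 0.0415, over 6 peaks) rose, and LTA fell (-0.87 ± 0.24, adjusted p = 0.0235, over 2 peaks). Without JJN3 DMSO the pomalidomide count was 1, and without JJN3 POM, KMS11 DMSO or KMS11 POM it was 0. For the combination it was 2 without JJN3 POM+GNE-781 and 1 without KMS11 DMSO or KMS11 POM+GNE-781. HLA-B, HLA-C and HLA-E, with 1 peak each and so the same counts at both levels, were called in no treatment comparison.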

How the data were processed

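The authors deposited 1 table of raw counts, whole numbers of reads per peak in 8 libraries, with no normalization, over a union of MACS2 peaks in GRCh38 and with the nearest transcript of each peak, per the file headers. Per the submitters' processing notes, reads were handled with Bowtie2 2.3.5.1 and SAMtools 1.10 among other tools, namely MACS2 2.1.1.20160309, cutadapt 2.5 under Trim Galore 0.6.4, and R 4.1.2. How duplicates, reads with several matches and the transposase offset were handled is not given in the sources used here.

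Peaks under a mean CPM of 2 were dropped (294, leaving 62234). Counts were scaled by TMM factors and analysed in R 4.3.3 with the two-sided quasi-likelihood test of edgeR 4.0.16, with the line and 1 effect per treatment as terms (3 residual degrees of freedom, 62.8 prior degrees of freedom). The common biological coefficient of variation was 0.13. A peak was called at a Benjamini-Hochberg adjusted p under 0.05 over all peaks, line calls also at 2-fold or more. CPM are on the scaled library sizes, errors are SE unless named SD, and single-library log2 ratios use a prior count of 2. Line dependence came from a model with additive drugs in each line (2 residual degrees of freedom). Counts were also summed per nearest gene (24872 tested). DESeq2 1.42.0, other scaling, no filter, only the libraries compared and each library left out were alternatives. The script was tested on simulated data. A mean over a line is over its 4 treatments, so its SD includes them. The totals of 1366628 to 5435673 counts set the precision.

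The region, its gene groups, the listed partners and the tests were chosen with earlier results of these data known. Peaks were named by rule: promoter peaks of 25 HLA, MIC, processing and cytokine genes where present, all called peaks up to 10 a direction (the lowest adjusted p beyond that), and, where none was called in a direction, the 3 with the lowest p. MARCH1, CTSS, NLRC5, ULBP1 to ULBP3 and CIITA among the partners, and the peaks beside HCG4B, were picked after their values were seen. Some items that the rule names are not reported here.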

Additional observations from a re-analysis of the deposited data

How the results depend on the processing

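For the line difference, 71 peaks were called, and 52 to 76 under the alternatives tried, with 37 to 41 genes on summed counts (38 in the main analysis). The 52 come from counting 2-fold from the flank median, which, like the alternatives on summed counts, was added after the data were seen. The counts of 0 for GNE-781, for the combination against pomalidomide, for the departure from additivity and for both tests of line dependence stayed 0 under every alternative run. The treatment calls were not steady. With the DESeq2 Wald test the count was 0 for pomalidomide (5 in the main analysis), 0 for the combination (7) and 1 for the combination against GNE-781 (2). With each library left out in turn, the counts ranged from 0 to 5 for pomalidomide, from 1 to 8 for the combination and from 0 to 3 for the combination against GNE-781, and on summed counts from 0 to 2 genes for pomalidomide and from 1 to 7 for the combination. Other scaling, no filter and the 4 compared libraries alone gave 5, 5 and 6 calls for pomalidomide and 7, 8 and 6 for the combination. None of the called peaks followed singly reversed its sign under the alternatives run on it. Those followed were the region's treatment calls, its peaks called higher in KMS11, and the calls higher in JJN3 with the lowest adjusted p. The remaining line calls were not followed singly, among them the promoter peaks of HLA-DMA, HLA-DRA, HLA-DRB1, HLA-DQB1 and MICA. Calls outside the region and uncalled changes were not followed in this way either. The line is a term of every treatment test, so libraries were compared within lines, and the labels give no further pairing. The shallowest library, JJN3 DMSO, held 1366628 counts, and with a library left out its treatment is measured in the other line alone.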
